A study of Mus musculus with 4 samples.

Results

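Open chromatin was measured by ATAC-seq, in which a transposase cuts accessible DNA, at the mouse MHC class II genes H2-Ab1, H2-Aa and H2-Eb1 and at Cd74, in monocytes from the bone marrow of femur and mandible. Members were all peaks overlapping a window of 120 kb on chromosome 17 (the class II window) or a window of 60 kb on chromosome 18 (the Cd74 window), chosen by position in GRCm39. The peaks found reached from 34467796 to 34574258 and from 60920104 to 60964341. This gave 30 of the 57090 peaks, 19 in the class II window and 11 in the Cd74 window, and every one was tested. No gene model of GRCm39 was used here, so a peak is named by its number and position and is not placed in a promoter, exon or intron.

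The 4 libraries came from 2 batches, and each batch pooled 4 mice to give 1 femur and 1 mandible library of 20000 cells. Femur replicate 1 and mandible replicate 1 were batch A, and femur replicate 2 and mandible replicate 2 were batch B. The labels give male mice of 2 months and name no treatment, and the study's methods give C57Bl/6J as the strain and, for monocyte isolation, both sexes. The labels call the cells CD11b+, and the protocol collected monocytes as the flow-through of a magnetic depletion kit. This cell type was not checked against marker genes, because peaks were not assigned to genes. Total counts in peaks ranged from 27464565 to 75294068 per library. Femur replicate 2 was the deepest and stood apart, with an SD of its log2 difference across all peaks of 0.430 to 0.498 from the other libraries, against 0.269 to 0.342 among those. In bulk samples, a smaller share of cells with a region open and less accessibility per cell cannot be told apart.

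MHC class II molecules are pairs of an alpha and a beta chain that present peptides from engulfed material to CD4+ T cells. H2-Aa encodes the alpha chain and H2-Ab1 the beta chain of the I-A molecule, and H2-Eb1 encodes the beta chain of I-E. Cd74 encodes the invariant chain, which assembles with new class II pairs, fills their groove and guides them to endosomes. Dendritic cells, B cells and activated macrophages are known for high class II levels, whereas classical bone marrow monocytes carry little. Transcription of these genes is driven by the coactivator CIITA, which is recruited by factors bound at conserved X and Y boxes just before the start of each gene. RFX proteins bind the X1 box, and NF-Y binds the Y box, whose core reads CCAAT on 1 strand and ATTGG on the other. In the gene order of RefSeq's GRCm38.p6 table, the protein-coding neighbours of the 3 class II genes are Tap2 and H2-Ob on one side and H2-Eb2 and Btnl2 on the other. Those of Cd74 are Ndst1 and Rps14 on one side and Tcof1 and Arsi on the other. Peaks are called class II or Cd74 by window alone, and none was assigned to any of these genes.

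The X and Y boxes are shown in promoters from RefSeq (GRCm38.p6), given as the 150 bases before the annotated start, 5′ to 3′ on the strand of the gene. H2-Aa and H2-Eb1 are among the genes the class II window is named for, H2-Eb2 (another beta chain gene) and H2-Ob lie beside them in that gene order, and H2-Oa is the partner of H2-Ob in the non-classical molecule that tempers peptide loading. Capitals mark the Y box core (CCAAT or its reverse complement ATTGG) and the X1 box core AGCAAC, searched on both strands. These positions belong to another build than the peaks and were not converted. H2-Aa is at chr17:34287824-34287973 on the minus strand, and the others are on the plus strand, H2-Eb1 at chr17:34305717-34305866, H2-Eb2 at chr17:34325525-34325674, H2-Ob at chr17:34238755-34238904 and H2-Oa at chr17:34092229-34092378.
H2-Aa: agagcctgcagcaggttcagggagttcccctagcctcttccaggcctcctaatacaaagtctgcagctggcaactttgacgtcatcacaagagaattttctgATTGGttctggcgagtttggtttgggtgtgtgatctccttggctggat
H2-Eb1: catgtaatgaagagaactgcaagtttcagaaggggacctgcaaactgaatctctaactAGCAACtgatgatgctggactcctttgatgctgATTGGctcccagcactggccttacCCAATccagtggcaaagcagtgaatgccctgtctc
H2-Eb2: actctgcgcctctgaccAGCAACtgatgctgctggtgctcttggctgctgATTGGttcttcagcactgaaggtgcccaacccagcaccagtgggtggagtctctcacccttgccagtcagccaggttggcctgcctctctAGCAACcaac
H2-Ob: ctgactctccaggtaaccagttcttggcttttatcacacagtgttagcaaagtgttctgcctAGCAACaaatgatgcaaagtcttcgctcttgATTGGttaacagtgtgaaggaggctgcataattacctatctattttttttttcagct
H2-Oa: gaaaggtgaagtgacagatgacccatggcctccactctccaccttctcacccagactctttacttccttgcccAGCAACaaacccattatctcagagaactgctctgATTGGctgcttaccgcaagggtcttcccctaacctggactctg

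All 5 of these promoters held ATTGG, which began 48 bases before the start in H2-Aa, 59 in H2-Eb1, 100 in H2-Eb2, 57 in H2-Ob and 43 in H2-Oa. In H2-Eb1, H2-Eb2, H2-Ob and H2-Oa the X1 letters stood before it on the same strand, with the first bases of both 33, 33, 31 and 34 bases apart. H2-Aa held no X1 letters of this spelling in the 250 bases searched. Nor did H2-DMa, H2-DMb1 and H2-DMb2, which encode the molecule that exchanges class II peptides and which held the Y box core, so 2 of the 5 chaperone and editor genes had both. H2-Ob and H2-Oa are printed because they show the spacing. Among all 32851 promoter windows of 250 bases in the table, 33.8% held the Y box core, 12.2% the X1 core, and 9 windows (0.0274%) held AGCAAC followed by ATTGG at 31 to 34 bases. That spacing was chosen after these promoters were read, and the 9 windows include those of H2-Eb1, H2-Eb2, H2-Ob and H2-Oa. Of the class I genes listed for comparison, 6 of 8 matched the table, 5 held the Y box core and 0 the X1 core. The X1 core was also found in 2 of 6 matched regulator genes (Rfx5 and Nfyc), in 1 of 2 turnover and costimulation genes (Marchf1) and in 0 of 4 antigen processing genes, in none of them at that spacing. The X2 box core TGCGTCA (1.75% of all windows), the PU.1 letters GAGGAAGT (2.44%), the composite of GGAA, any 2 bases and GAAA (2.3%) and the interferon element of GAAA, any 2 bases and GAAA (2.98%) matched in none of the 5 promoters. A match gives letters and not a bound site. Only these spellings were searched, so the lack of a match does not show that a promoter, such as that of H2-Aa, lacks the box.

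Levels in both windows lay between the 1.11th and the 84.3rd percentile of all peaks when divided by peak length. Values are loess-normalized CPM, counts scaled to the library total after a curve fitted to each library against mean level had been removed. The median over class II peaks was 17.3 CPM per kb and over Cd74 peaks 21.2 CPM per kb, against 19.5 over all peaks. By this measure 6 of 19 class II peaks and 6 of 11 Cd74 peaks lay above the median of all peaks, the highest being Peak_23737. Class II peaks were short, with a median of 263 bp and a range of 160 to 690 bp, against a median of 364 bp over all peaks. A stretch of 120 kb centred on a class II peak overlapped a median of 19 peaks and one centred on a Cd74 peak 21, against 9 around all peaks. Counts per member and library ran from 61 to 2560.

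None of the 30 peaks passed the threshold of edgeR's quasi-likelihood test between mandible- and femur-derived monocytes. At adjusted p-values under 0.05, 0 members were higher and 0 lower in mandible, and the lowest adjusted p among them was 1.0. Of all 57090 peaks, 0.00701% passed, 0.00525% higher and 0.00175% lower, which is 3 and 1 peaks, against 47 and 10 with batch as a block. Before adjustment, 0 of 19 class II peaks and 2 of 11 Cd74 peaks had a p-value under 0.05, both higher in mandible, against 2.71% of all peaks, of which 1.61% were higher and 1.1% lower. DESeq2 also called 0 members after adjustment, with adjusted p-values for 11 of the 30, and 0 and 2 before it. A log2 fold change of 0.5 or more in favour of mandible was found in 0 class II and 3 Cd74 peaks, against 3.73% of all peaks. Permuting 2 libraries against 2 exactly gives no two-sided p under 0.333, so the p-values rest on the spread edgeR shares across peaks.

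In the class II window, the sites differed by less than the replicates of femur did. Summed over its 19 peaks, femur replicate 1 had 105.3 CPM and femur replicate 2 had 144.5, while mandible replicate 1 had 118.6 and mandible replicate 2 had 137.5. Both mandible values fell between the femur values, and the means were 124.9 ± 27.7 (SD, n = 2) for femur and 128.1 ± 13.3 (SD, n = 2) for mandible. The log2 fold change of mandible over femur had a median of -0.034 over the 19 peaks, ranging from -0.47 to 0.33, against a median of -0.0044 over all peaks. It was positive in 8 peaks and negative in 11, against 49.05% positive over all peaks. In 17 of the 19 peaks the femur and mandible libraries overlapped. In the other 2, Peak_23736 and Peak_23747, both mandible libraries lay below both femur libraries, a pattern found in 13.8% of all peaks, where groups did not overlap in either direction in 27.1%.

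**Figure D1:**
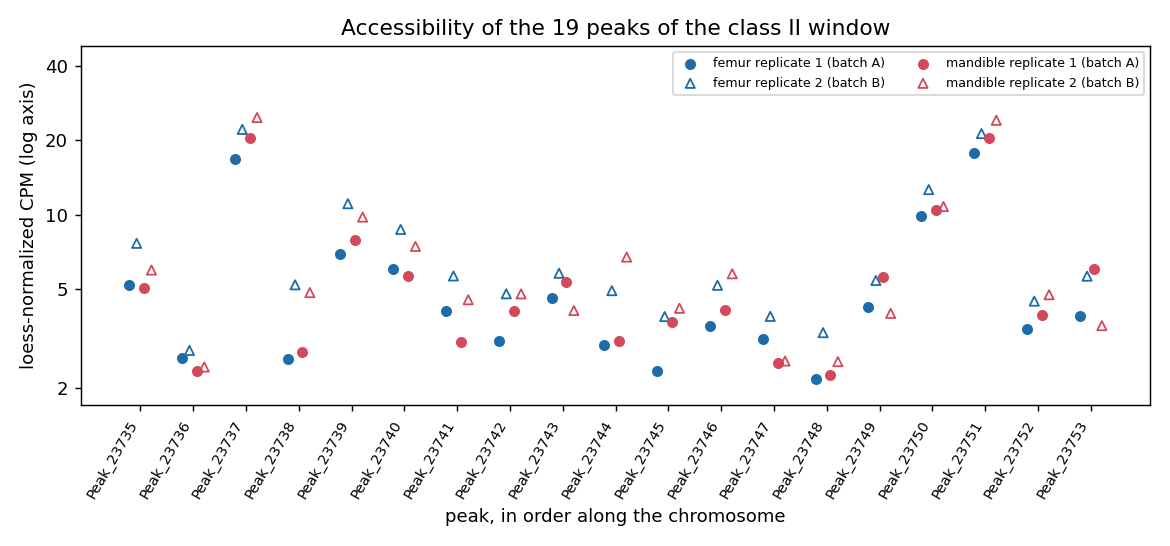
Loess-normalized CPM (log axis) of each of the 19 class II peaks, in order along the chromosome, with 1 point per library. Blue marks femur and red mandible, filled circles batch A and open triangles batch B, and the 2 highest peaks, Peak_23737 and Peak_23751, reach 24.7 and 24.0 CPM in mandible replicate 2.

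The 3 strongest class II peaks lay towards both ends of the window. Peak_23737, a 608 bp peak from 34476379 to 34476986, had 16.8 CPM in femur and 20.3 in mandible in batch A, and 22.1 and 24.7 in batch B. Mandible was above femur within each batch, but femur replicate 2 exceeded mandible replicate 1, so the sites overlapped. Its log2 fold change was 0.21 (standard error 0.20, 95% interval -0.21 to 0.63). Peak_23751, 668 bp from 34566592 to 34567259, had 17.8 and 21.3 CPM in femur replicates 1 and 2 and 20.4 and 24.0 in the same replicates of mandible, an order kept in the values that follow. It gave the same ordering of libraries, with a log2 fold change of 0.18 (standard error 0.19, 95% interval -0.22 to 0.59). Without femur replicate 1 the log2 fold changes of Peak_23737 and Peak_23751 were 0.021 and 0.060, and without femur replicate 2 they were 0.43 and 0.32. Peak_23750, 340 bp from 34559963 to 34560302, had 9.83 and 12.6 CPM in femur and 10.5 and 10.8 in mandible. Both mandible values lay between the femur values here, and the log2 fold change was -0.083 (standard error 0.23, 95% interval -0.56 to 0.39). Between Peak_23749 and Peak_23750 lay the longest peak-free stretch of the window, 27264 bp, and another of 22592 bp lay before Peak_23741.

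The 3 class II peaks with the lowest p-values all lay below the window's median level of 4.66 CPM. Peak_23747, from 34528677 to 34528987, had 3.14 and 3.88 CPM in femur and 2.51 and 2.56 in mandible. The sites did not overlap, and the log2 fold change was -0.47 (standard error 0.30, unadjusted p = 0.134 and adjusted p = 1.0 from edgeR). It was also the class II peak with the lowest level per length, 9.73 CPM per kb. Peak_23741, from 34506754 to 34507003, had 4.07 and 5.66 CPM in femur and 3.06 and 4.53 in mandible. Mandible was the lower in both batches, the sites overlapped, and the log2 fold change was -0.37 (standard error 0.29). Peak_23745, from 34523787 to 34524024, had 2.33 and 3.88 CPM in femur and 3.69 and 4.19 in mandible. The log2 fold change was 0.33 (standard error 0.31), and mandible was the higher in both batches, by 0.67 on the log2 scale in batch A and by 0.11 in batch B. With 1 library left out, Peak_23745 ranged from 0.014 without femur replicate 1 to 0.76 without femur replicate 2, and Peak_23741 from -0.68 without mandible replicate 2 to -0.10 without femur replicate 2. Peak_23747 ranged from -0.63 without femur replicate 1 to -0.29 without femur replicate 2. Over the 19 peaks the standard errors ran from 0.19 to 0.35, and the 95% intervals together reached from -1.11 to 1.02, which is the precision 2 libraries a site allowed.

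Replicates of 1 site differed in the same direction across most of the class II window. Femur replicate 2 was above femur replicate 1 in 19 of 19 peaks, by a median of 0.53 on the log2 scale and by 0.10 to 0.99, whereas 50.6% of all peaks were higher in femur replicate 2. Mandible replicate 2 was above mandible replicate 1 in 16 of 19, by a median of 0.24, against 50.7% of all peaks. With library size in place of loess scaling, these counts were 19 and 15, against 33376 and 29625 of all 57090 peaks. Peaks of 1 window come from the same libraries and are not independent. The exceptions among mandible libraries with loess scaling were Peak_23743, Peak_23749 and Peak_23753. Peak_23753, from 34574032 to 34574258, had 3.89 and 5.64 CPM in femur but 6.05 and 3.56 in mandible. It was thus higher in mandible by 0.64 in batch A and lower by 0.66 in batch B, with a log2 fold change of 0.0094 over both. The median difference of mandible minus femur over the 19 peaks was 0.19 in batch A, where 14 peaks were positive, and -0.22 in batch B, where 6 were. Among all peaks, 49.4% were positive in batch A and 49.0% in batch B. Mandible and femur differed in the same direction in both batches in 11 of the 19 peaks, against 42.3% of all peaks. Of these 11, mandible was higher in 6 and lower in 5, against 20.3% and 22.0% of all peaks. Without femur replicate 2, which stands apart across all peaks, the median log2 fold change was 0.32 and 16 peaks were positive, and without femur replicate 1 it was -0.25 and 3 were. The part of that library in the batch difference was not tested.

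The batches were also compared as a term of the edgeR fit beside skeletal site, a comparison chosen after the values had been seen. Batch B exceeded batch A in 16 of 19 class II peaks, with a median log2 difference of 0.40, and in 8 of 11 Cd74 peaks, with a median of 0.11, whereas 48.8% of all peaks were higher in batch B. Here too, the peaks of a window are not independent. After adjustment 0 members were called, as were 0.0403% of all peaks. Before it, 2 class II peaks and 1 Cd74 peak had p-values under 0.05, all higher in batch B. Over all peaks, 545 (0.955%) were higher and 1127 lower in batch B at that level. The class II pair were Peak_23744 (log2 difference 0.92, standard error 0.32) and Peak_23738 (log2 difference 0.90, standard error 0.33). In Peak_23744, from 34515044 to 34515401, batch A had 2.98 CPM in femur and 3.09 in mandible, and batch B had 4.93 and 6.74. In Peak_23738, from 34480548 to 34480825, batch A had 2.62 and 2.79, and batch B had 5.21 and 4.84. Both libraries of batch B lay above both of batch A in these peaks, which were picked for their low p-values in this comparison. The share of all peaks with this order was not counted. With TMM normalization 17 and with library size scaling 18 of the 19 class II peaks were higher in batch B, against 48.6% and 56.5% of all peaks.

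In the Cd74 window, the summed level was 101.9 CPM in femur and 108.6 in mandible in batch A, and 103.1 and 128.8 in batch B. With this loess scaling both mandible libraries lay above both femur libraries, with means of 102.5 ± 0.850 (SD, n = 2) for femur and 118.7 ± 14.3 (SD, n = 2) for mandible. As a plain share of library counts the sites overlapped, at 0.0103% and 0.0109% in femur replicates 1 and 2 and 0.0104% and 0.0126% in the mandible replicates. The log2 ratio of mandible to femur was 0.092 for batch A and 0.32 for batch B. The median log2 fold change over the 11 peaks was 0.11, ranging from -0.32 to 0.62, with 7 positive and 4 negative, against 49.05% positive over all peaks. This median changed sign with other scalings, at -0.024 with TMM normalization, -0.015 with DESeq2 and -0.12 with library size scaling, under which all peaks had a median of -0.12 against -0.0044 with loess.

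The peaks fell into an order along the chromosome. Peak_26211 to Peak_26216, 6 peaks less than 1000 bp apart from one another between 60936522 and 60942101, form a dense run of 5580 bp, and 4 peaks lie before it and 1 after it. The gap of 1000 bp that defines the run was chosen after the values were seen. The log2 fold change was positive in 6 of 6 peaks of the run, from 0.11 to 0.62 with a median of 0.42, and negative in 4 of 4 peaks before it, from -0.32 to -0.045 with a median of -0.22. Over all peaks, 49.05% were positive. Neighbouring peaks share their local chromatin and are not independent. With TMM normalization, DESeq2 and library size scaling, 5 of 6 were positive in the run, Peak_26216 giving -0.024, -0.015 and -0.12, and 4 of 4 before it were negative. Without femur replicate 2 or without mandible replicate 2, the counts were 5 of 6 and 3 of 4. The sum over the run was 77.0 and 74.6 CPM in femur and 85.1 and 104.5 in mandible, whereas the sum over the 4 peaks before it was 22.6 and 25.5 in femur and 20.9 and 21.5 in mandible. The sites did not overlap in either sum, in opposite directions, and the same held for the plain shares of library counts. Among all single peaks with loess scaling, groups did not overlap in 13.3% with mandible higher and in 13.8% with mandible lower. The difference between the run and the peaks before it was not tested.

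**Figure D2:**
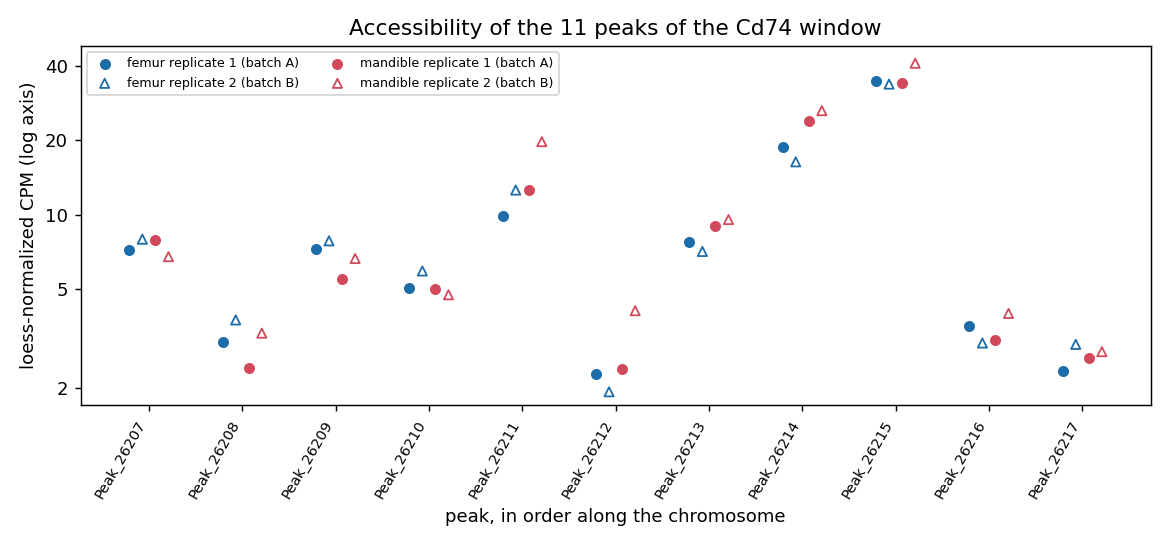
Loess-normalized CPM (log axis) of each of the 11 Cd74 peaks, in order along the chromosome, with 1 point per library. Blue marks femur and red mandible, filled circles batch A and open triangles batch B, and mandible replicate 2 is the highest library in all 6 peaks from Peak_26211 to Peak_26216. That library is the highest in 26.6% of all peaks.

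Within the run, Peak_26214 and Peak_26211 were the 2 members with an unadjusted p-value under 0.05. Peak_26214, 982 bp from 60938490 to 60939471, had 18.8 CPM in femur and 23.9 in mandible in batch A, and 16.3 and 26.3 in batch B. Both mandible libraries exceeded both femur libraries, as in 13.3% of all peaks, and the difference was 0.35 on the log2 scale for batch A and 0.69 for batch B. The log2 fold change was 0.52 (standard error 0.19, 95% interval 0.12 to 0.91, unadjusted p = 0.0128 and adjusted p = 1.0 from edgeR). It was 0.62 without femur replicate 1, 0.41 without femur replicate 2, 0.59 without mandible replicate 1 and 0.46 without mandible replicate 2. Each of these fits left 1 library at a site, assumed to vary like the other group.

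Peak_26211, 645 bp from 60936522 to 60937166, had 9.89 and 12.6 CPM in femur and 12.5 and 19.7 in mandible. Mandible was above femur in each batch, by 0.34 and 0.65 on the log2 scale, but mandible replicate 1 did not exceed femur replicate 2. Its log2 fold change was 0.52 (standard error 0.24, 95% interval 0.011 to 1.03, unadjusted p = 0.0457 and adjusted p = 1.0 from edgeR). Without mandible replicate 2 the log2 fold change was 0.17, and without mandible replicate 1 it was 0.81. Peak_26212, the weakest of the run at 12.5 CPM per kb, had 2.27 and 1.93 CPM in femur and 2.37 and 4.09 in mandible. Nearly all of its log2 fold change of 0.62 (standard error 0.35) came from batch B, where the difference was 1.09, against 0.066 in batch A, and it was 0.036 without mandible replicate 2 and 0.97 without mandible replicate 1.

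The widest member was Peak_26215, 1439 bp from 60939643 to 60941081 and at the 93.4th percentile of length. It held the most counts of the members, with 34.7 and 33.7 CPM in femur and 34.1 and 40.9 in mandible. The 3 libraries other than mandible replicate 2 lay between 33.7 and 34.7, and the log2 fold change was 0.13 (standard error 0.16, 95% interval -0.19 to 0.46). It was 0.0031 without mandible replicate 2 and 0.26 without mandible replicate 1. Peak_26213, from 60937810 to 60938360, lies between Peak_26212 and Peak_26214 and is given here after its values were seen. Its libraries did not overlap, at 7.79 and 7.10 CPM in femur and 9.03 and 9.55 in mandible, with a log2 fold change of 0.32 (standard error 0.23, unadjusted p = 0.184 from edgeR). Peak_26216 closed the run with 3.57 and 3.03 CPM in femur and 3.12 and 3.99 in mandible. Mandible was lower there in batch A and higher in batch B.

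Of the 5 Cd74 peaks outside the run, 4 had a negative log2 fold change. In Peak_26209, from 60925075 to 60925378, the femur libraries had 7.27 and 7.84 CPM and the mandible libraries 5.51 and 6.65. In Peak_26210, from 60928237 to 60928481, the values were 5.07 and 5.92 in femur and 5.01 and 4.75 in mandible. The sites did not overlap in either peak, with log2 fold changes of -0.32 (standard error 0.24) and -0.18 (standard error 0.26), but neither passed the unadjusted threshold. Peak_26217, separated from the run by 22052 bp, had 2.33 and 2.99 CPM in femur and 2.65 and 2.80 in mandible, and its log2 fold change was 0.023 (standard error 0.32). Over the window the groups did not overlap in 3 of 11 peaks with mandible higher and in 2 with mandible lower, against 13.3% and 13.8% of all peaks and 27.1% in either direction. Scaled by library size, Peak_26212 overlapped, at 2.34 and 2.18 CPM in femur and 2.22 and 3.75 in mandible. Peak_26208 did not overlap with that scaling, with 3.13 and 4.32 CPM in femur above 2.25 and 3.02 in mandible.

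**Figure D3:**
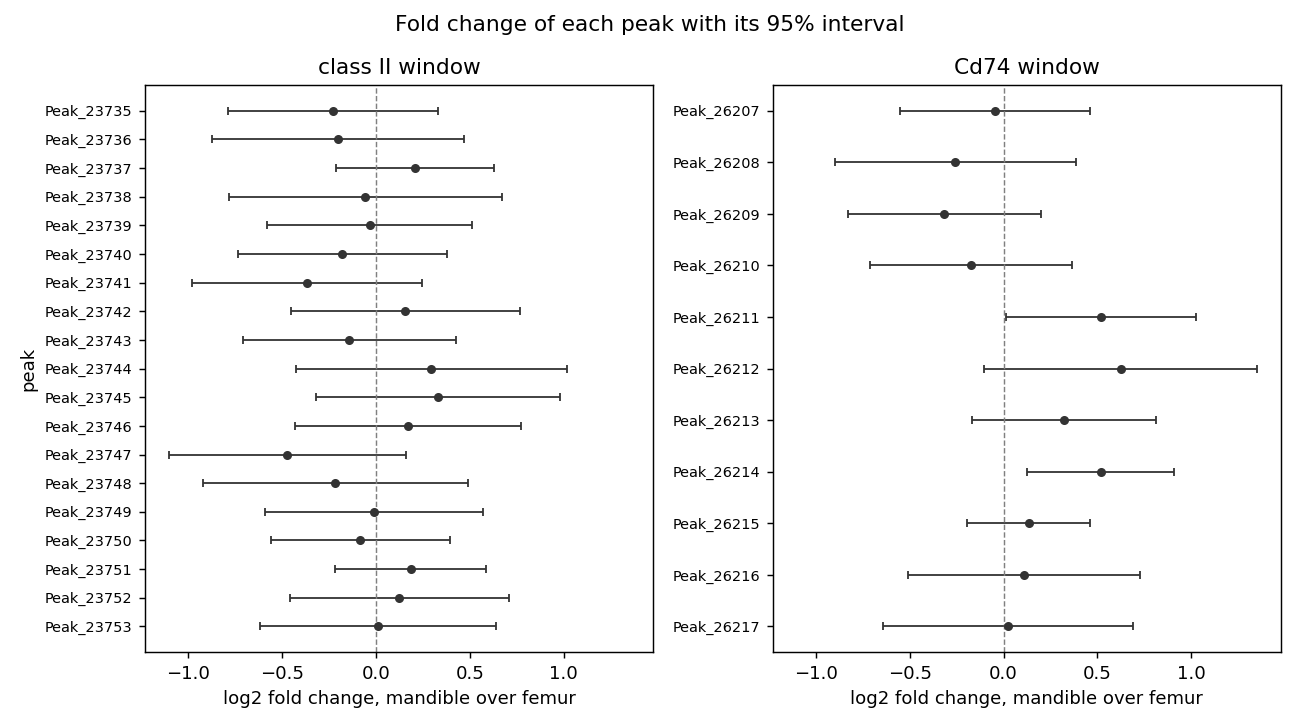
Log2 fold change of mandible over femur for each of the 30 peaks, with the 95% interval of the edgeR fit as bars and a dashed line at 0. The intervals of Peak_26211 and Peak_26214 lie above 0 before adjustment over all peaks, and those of all 19 class II peaks cross it.

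In the dense run of the Cd74 window, mandible was higher in 4 of 6 peaks in batch A, by a median of 0.14 on the log2 scale, and in 6 of 6 in batch B, by a median of 0.54. Of the 4 peaks before the run, 1 was higher in mandible in batch A and 0 in batch B. Among all peaks, 49.4% were higher in mandible in batch A and 49.0% in batch B. Femur replicate 2 was below femur replicate 1 in 5 of 6 peaks of the run, whereas it was above in every class II peak, while mandible replicate 2 was above mandible replicate 1 in 6 of 6.

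**Figure D4:**
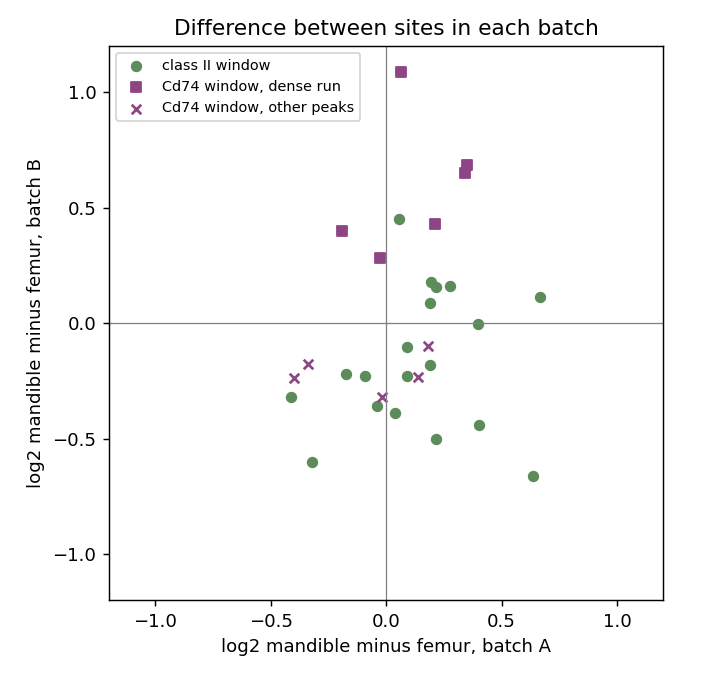
Log2 difference of mandible minus femur in batch A (horizontal axis) and in batch B (vertical axis), with 1 point per peak. Green circles are class II peaks, purple squares the dense run of the Cd74 window and crosses its other peaks, and the 6 squares lie above 0 in batch B, as do 6 of the 19 circles.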

How the data were processed

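The authors used Trimmomatic for trimming, Bowtie2 for alignment to GRCm39 and Genrich, in its mode for ATAC-seq, for calling peaks on each pair of duplicates, after filtering by mapping quality and removing PCR copies. Femur and mandible peaks were merged (bedtools), and the authors deposited raw counts per merged peak from featureCounts 2.0.6, in which both reads of a pair were counted. Because peaks were called on pooled duplicates, only counts were compared. That mode works from transposase cut sites, and whether reads were also shifted for counting is not given in the sources used here.

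The counts of all 57090 peaks were fitted in R 4.3.3 with edgeR 4.0.16 (glmQLFit, glmQLFTest) and loess offsets (limma 3.58.1, span 0.3, pseudocount 0.5), with skeletal site as the term. P-values were adjusted by Benjamini-Hochberg over the whole table. Standard errors were the log2 fold change over the square root of F, and 95% intervals used the fit's degrees of freedom. Total counts of 27464565 to 75294068 and the coefficient of variation between replicates of 17.0% set the precision. Same-numbered libraries share a batch of pooled mice by the labels, so the numbers pair them, although their deviations from the site means correlated at -0.167 across peaks.

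Members and gene lists were chosen with earlier results of these data known. Peaks named were, per window, the 3 highest by mean CPM, the 3 with the lowest p-value and any past the threshold. Other peaks named were chosen after their values were seen. The reference used is GRCm38, and coordinates were not converted, so start sites, pathway genes and cell type markers were not analysed here. Promoter sequences came from RefSeq's GRCm38.p6 table by symbol, matching 3 of 4 class II chain genes and 5 of 5 of the chaperone and editor genes (H2-DMa, H2-DMb1, H2-DMb2, H2-Oa, H2-Ob). Motifs were searched in 250 bases before each start. Alternatives were TMM, library size alone, DESeq2 1.42.0, a minimum of 10 counts in every library, batch as a block and each library left out in turn. A crossed pairing and the batch term were added after seeing the data.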

Additional observations from a re-analysis of the deposited data

How the results depend on the processing

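At an adjusted p-value under 0.05, the class II window gave 0 higher and 0 lower peaks in every alternative, and the Cd74 window 0 lower and 0 higher except without a library, where the number higher ranged from 0 to 1 (Peak_26214, log2 fold change 0.62, without femur replicate 1). Over all peaks the calls were 3 higher and 1 lower, against 6 and 0 with TMM normalization, 15 and 0 with DESeq2, and 16 and 2 with library size alone. With the replicate block by batch they were 47 and 10 (before adjustment, 1265 and 426 had p-values below 0.05). The block changed no call among the 30 members. Crossing the pairs of the replicate block, tried after the negative correlation of deviations was seen, gave 184 and 23. With each library left out, calls ranged from 4 to 2141 higher and from 1 to 547 lower, the largest without femur replicate 1. The median log2 fold change of class II peaks, -0.034, ranged from -0.25 (without femur replicate 1) to 0.32 (without femur replicate 2), and that of Cd74 peaks, 0.11, was -0.12 with library size alone and ranged from 0.0031 to 0.26 with a library left out. Of 100 combinations of named peak and alternative, 1 changed direction, Peak_23750 at 0.12 without femur replicate 2, and 1 passed the threshold, Peak_26214. The named peaks were picked by level or p-value. Over all 30 members, direction changed in 4 with TMM normalization, 6 with library size alone and 3 with DESeq2. It changed in 2 with batch as a block and in 1 with the pairs crossed. With a library left out it changed in 4 to 10 members, the most without femur replicate 2. The cause of these changes was not tested. The pathway genes and their 5 kb alternative were not run, since peaks were not assigned to genes. The spread between 2 replicates and counts as low as 61 per peak and library limit what these peaks can show, and the standard errors of members ran from 0.16 to 0.35.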
